A study of Mus musculus with 6 samples.

Results

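Aminoacyl-tRNA synthetases join each amino acid to its own tRNA, the step that sets the meaning of the genetic code. The genes described here were taken by symbol: the 1-letter synthetase names with or without a final 1 or 2, Eprs, both subunits of the phenylalanine enzyme (Farsa and Farsb), the second threonine enzyme Tarsl2, and the 3 proteins Aimp1, Aimp2 and Eef1e1 that scaffold the multi-synthetase complex. They came to 38 of 19938 genes measured, of which 19 encode cytosolic enzymes, 16 encode mitochondrial enzymes (symbols ending in 2) and 3 are scaffold genes. Other genes of the family were not analysed here, among them Aars, which was covered by a probe set that names several genes.

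Cells keep separate sets of synthetases for the cytosol and for the mitochondrion, although Gars and Kars each serve both compartments from 1 gene, and Eprs charges both glutamate and proline. Several cytosolic enzymes sit in the multi-synthetase complex and the others work alone or in pairs of subunits. When uncharged tRNA builds up, the kinase GCN2 phosphorylates eIF2, translation of the transcription factor ATF4 rises, and ATF4 induces amino acid synthesis enzymes, amino acid transporters and many of the cytosolic synthetases.

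The samples were mouse pre-B cells transformed by BCR-ABL1, from the C57Bl/6 strain and with the genotype Bcor fl/Y. The Cre-ERT2 group was transduced with PMIP-CRE-ERT2, which encodes a Cre recombinase that tamoxifen activates, and the ERT2 group with PMIP-ERT2, named without Cre, with 3 arrays in each. All 6 samples shared the floxed Bcor allele, puromycin resistance and 2 days in 4OH-Tamoxifen at 0.5 micromolar, so the comparison is of cells with and without the Cre vector under the same drug. Bcor encodes a corepressor that partners the repressor BCL6. The labels give neither the promoter of the vectors nor separate cultures or clones behind the arrays, so the p-values rest on the scatter among these 6 arrays alone, and that scatter may be technical.

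Bcor, the floxed gene, had log2 levels of 9.08, 9.22 and 9.18 in the Cre-ERT2 arrays, against 10.07, 10.11 and 10.17 in the ERT2 arrays. It stood at 51.5% of the ERT2 level (log2 fold change -0.96, SE 0.0491, adjusted p = 2.11e-05), and which exons its probes cover relative to the floxed ones is not given in the sources used here. Median log2 values per array lay between 8.61 and 8.68. Of 12 pre-B markers 2 rose, Dntt by 0.86 (limma adjusted p = 0.000250) and Cd24a by 0.19 (adjusted p = 0.0453). Rag1 fell by 0.38 (adjusted p = 0.000958). Of all genes 4.05% were called higher and 2.98% lower. The median log2 fold change of the 12 was 0.04, and Dntt changed most. The mean log2 level of the 12 lay between 12.30 and 12.33 in Cre-ERT2 arrays and between 12.23 and 12.27 in ERT2 arrays. The brightest were Igll1 (14.25 in Cre-ERT2 and 14.20 in ERT2, mean log2) and Cd24a (13.86 in Cre-ERT2 and 13.67 in ERT2). Lists of myeloid, T and NK, erythroid and stromal markers averaged between 7.72 and 8.26 in Cre-ERT2 arrays and between 7.77 and 8.27 in ERT2 arrays. The brightest of each were Lyz2 and Elane, Cd3e and Zap70, Itga2b and Epor, and Col1a1 and Col1a2, with mean log2 levels between 8.32 and 10.21 in Cre-ERT2 and between 8.44 and 9.76 in ERT2. Among their genes Lyz2 rose by 0.45 (adjusted p = 0.00488) and Ncr1 fell by 0.23 (adjusted p = 0.0127). The T and NK list and the stromal list were each lower in all Cre-ERT2 arrays, and the part of other cells in the results below was not tested. In bulk samples, fewer cells of a type and less RNA per cell cannot be told apart.

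Most cytosolic synthetase genes were lower with Cre-ERT2 than with ERT2. Of 19 genes, 11 fell, 0 rose and 8 were not called, against 2.98% of all 19938 genes called lower and 4.05% called higher (limma, Benjamini-Hochberg adjusted p under 0.05 over all genes). The 11 were Cars, Tarsl2, Gars, Mars1, Lars, Tars, Yars, Nars, Sars, Iars and Wars. The median log2 fold change of the 19 was -0.18, or 88.1% of the ERT2 level, where the median of all genes was -0.04. Of the 19, 18 belong to the brightest 25% of genes by mean level, where 4.73% were called lower. All Cre-ERT2 arrays lay below all ERT2 arrays for 16 of the 19, and for 20.3% of all genes. Over all 38 members, 14 were called, against 7.03% of all genes called in either direction, and 35 had a log2 fold change below 0, as did 68.2% of all genes. All Cre-ERT2 arrays lay above all ERT2 arrays for 0 members and for 9.56% of all genes. Left out 1 at a time, ERT2 replicates 1, 2 and 3 took the number of cytosolic genes called lower to 8, 7 and 8. Cre-ERT2 replicates 1, 2 and 3 took it to 6, 6 and 9.

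**Figure D1:**
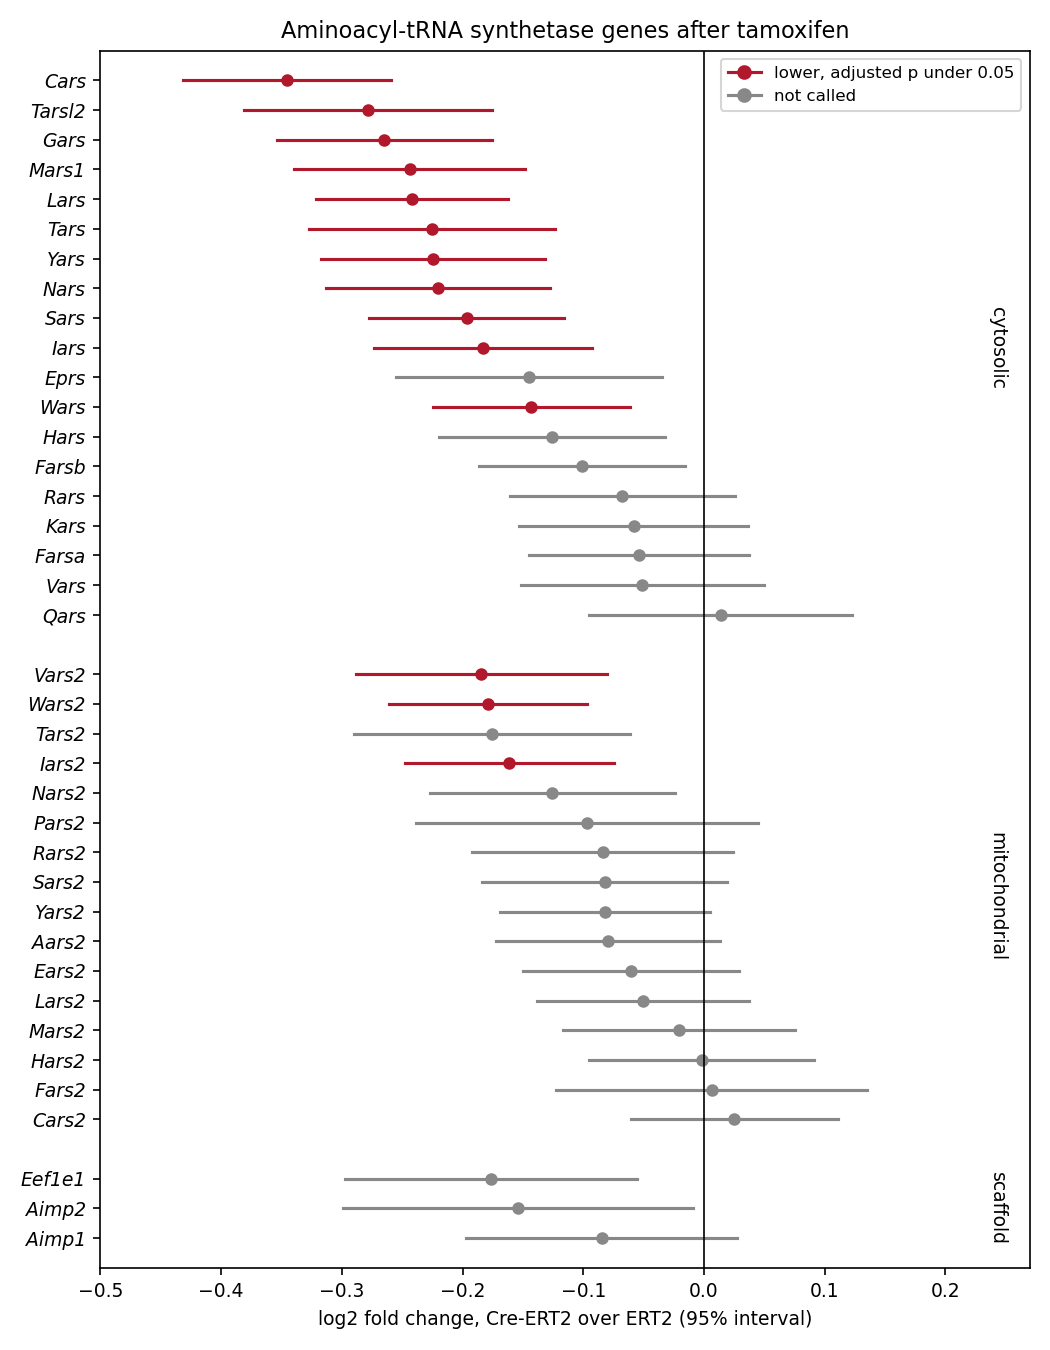
Each row is a gene, with its log2 fold change (Cre-ERT2 over ERT2) and 95% interval on the horizontal axis. Red marks an adjusted p under 0.05. The cytosolic rows run between -0.35 for Cars and 0.01 for Qars, the mitochondrial rows between -0.18 for Vars2 and 0.03 for Cars2.

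Cars, which charges cysteine, changed most. It had log2 levels of 11.68, 11.71 and 11.74 in Cre-ERT2 arrays, against 12.04, 12.03 and 12.08 in ERT2 arrays. The groups were far apart relative to their spread, and Cars stood at 78.7% of its ERT2 level with Cre-ERT2 (log2 fold change -0.35, SE 0.0377, limma adjusted p = 0.000942). Tarsl2, a second cytosolic threonine enzyme, had 9.64, 9.64 and 9.56 in Cre-ERT2 arrays and 9.83, 9.90 and 9.94 in ERT2 arrays. It fell by 0.28 (SE 0.0450, adjusted p = 0.00720) and was the dimmest gene of the class. Gars, which charges glycine in both compartments, had 13.02, 13.05 and 13.08 in Cre-ERT2 arrays and 13.32, 13.28 and 13.35 in ERT2 arrays. Its fall was 0.26 on the log2 scale, to 83.2% of the ERT2 level (SE 0.0391, adjusted p = 0.00477).

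Mars1 and Lars, which charge methionine and leucine inside the multi-synthetase complex, came next. Mars1 measured 11.83, 11.85 and 11.89 with Cre-ERT2, against 12.05, 12.11 and 12.15 with ERT2, and stood at 84.5% (log2 fold change -0.24, SE 0.0420, adjusted p = 0.00999). Lars measured 12.59, 12.58 and 12.60 with Cre-ERT2, against 12.83 in each ERT2 array to 2 decimals. Its replicates were the tightest of the class, with SDs of 0.00769 in Cre-ERT2 and 0.00402 in ERT2, and it stood at 84.6% (log2 fold change -0.24, SE 0.0348, adjusted p = 0.00415). The calls of Cars, Tarsl2, Gars, Mars1 and Lars remained with each of the 6 arrays left out in turn, at an adjusted p of up to 0.0493 (Mars1).

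The next 4 genes fell by 0.20 to 0.23 on the log2 scale. Tars, the main cytosolic threonine enzyme, had 11.76, 11.79 and 11.82 in Cre-ERT2 arrays and 11.96, 12.09 and 11.997 in ERT2 arrays (log2 fold change -0.23, adjusted p = 0.0192). Yars, for tyrosine, had 12.59, 12.55 and 12.57 in Cre-ERT2 arrays and 12.78, 12.76 and 12.85 in ERT2 arrays (-0.22, adjusted p = 0.0127). In both genes the ERT2 arrays were the more scattered, and no array of 1 group reached the other. Nars, for asparagine, had 13.17, 13.22 and 13.26 in Cre-ERT2 arrays and 13.40, 13.46 and 13.44 in ERT2 arrays (-0.22, adjusted p = 0.0138). Sars, for serine, had 12.81, 12.83 and 12.79 in Cre-ERT2 arrays and 13.02, 12.99 and 13.01 in ERT2 arrays (-0.20, adjusted p = 0.0124). These calls were less firm than the 5 above. Tars missed the threshold when any of Cre-ERT2 replicates 1 and 2 and ERT2 replicates 2 and 3 was dropped (adjusted p up to 0.0771). Yars missed it only when Cre-ERT2 replicate 2 was dropped (0.0676). Nars missed it when Cre-ERT2 replicate 1, Cre-ERT2 replicate 2 or ERT2 replicate 2 was dropped (up to 0.0617), and Sars when replicate 1 of either group was (up to 0.0654).

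Iars and Wars were called by a narrow margin. Iars, which charges isoleucine, had 12.98, 12.99 and 12.91 in Cre-ERT2 arrays and 13.14, 13.16 and 13.14 in ERT2 arrays (log2 fold change -0.18, SE 0.0397, adjusted p = 0.0288). It is the only gene of the 38 with a second probe set, which read 12.72, 12.76 and 12.84 in Cre-ERT2 arrays and 12.97, 13.01 and 13.01 in ERT2 arrays, a log2 fold change of -0.22. Wars, for tryptophan and also known as an interferon-gamma-induced gene, had 12.18, 12.16 and 12.15 in Cre-ERT2 arrays and 12.30, 12.29 and 12.32 in ERT2 arrays (-0.14, SE 0.0358, adjusted p = 0.0494). For both genes the arrays of the groups did not overlap, and both calls ended with any 1 of the 6 arrays left out (adjusted p up to 0.0945 for Iars and 0.169 for Wars). Median centring ended both calls (adjusted p = 0.0772 for Iars and 0.142 for Wars), and quantile normalization (0.0837) and cyclic loess (0.0585) ended that of Wars.

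**Figure D2:**
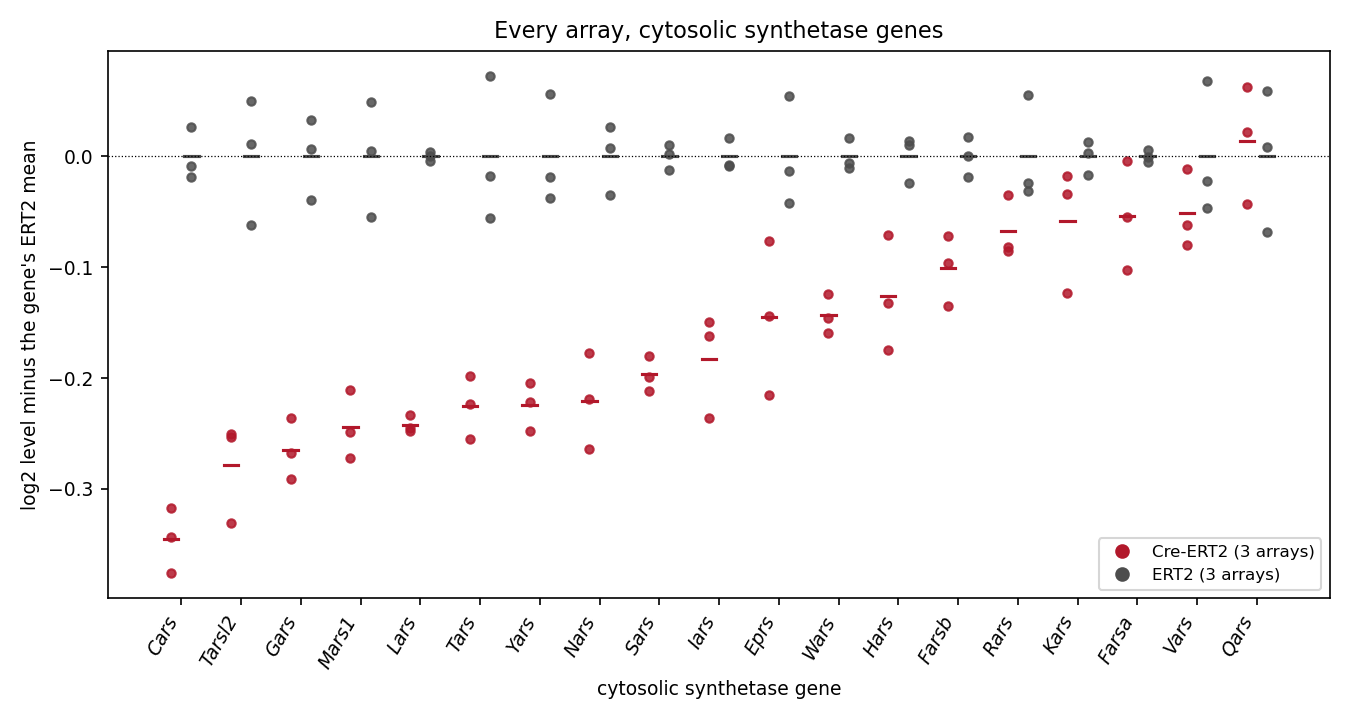
Every array of the 19 cytosolic genes is a point, as its log2 level minus that gene's ERT2 mean (vertical axis), with Cre-ERT2 in red at the left of each gene and ERT2 in grey at its right. Bars are group means. The red points lie wholly below the grey ones in all genes but Farsa, Vars and Qars.

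Of the 8 cytosolic genes that were not called, Eprs and Hars were closest to the threshold. Both were called lower with an intensity trend (adjusted p = 0.0468 for Eprs and 0.0486 for Hars) and with array weights (0.0304 and 0.0372). Each setting took the cytosolic genes called lower to 13 of 19. Over all 19938 genes the number called lower went from 594 to 841 with the trend and to 2024 with the weights. Eprs, the complex's enzyme for glutamate and proline, had 12.32, 12.39 and 12.46 in Cre-ERT2 arrays and 12.52, 12.59 and 12.49 in ERT2 arrays (log2 fold change -0.15, 95% interval -0.26 to -0.03, adjusted p = 0.119). Hars, for histidine, had 11.83, 11.87 and 11.94 in Cre-ERT2 arrays and 11.98, 12.02 and 12.02 in ERT2 arrays (-0.13, 95% interval -0.22 to -0.03, adjusted p = 0.114). Farsb was at -0.10 and its partner subunit Farsa at -0.05. Rars, the arginine enzyme of the complex, had 13.40, 13.41 and 13.45 in Cre-ERT2 arrays and 13.46, 13.54 and 13.46 in ERT2 arrays (-0.07, adjusted p = 0.361). Its groups came close to each other without overlapping. Kars, for lysine, was at -0.06 and Vars, for valine, at -0.05. Qars, for glutamine, was the only cytosolic gene with a value above 0, at 0.01 with a 95% interval of -0.09 to 0.12. For Rars, Kars, Farsa, Vars and Qars the intervals reach down to -0.16, so a fall of the size seen in Cars lies outside them.

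Divided by membership of the complex, 3 of 7 cytosolic synthetases of the multi-synthetase complex (Mars1, Lars and Iars) and 8 of 12 outside it were called lower, with median log2 fold changes of -0.15 and -0.21. Divided by regulation, 10 of 11 enzymes commonly listed as ATF4 targets (Cars, Gars, Mars1, Lars, Tars, Yars, Nars, Sars, Iars and Wars, with Eprs the exception) and 1 of 8 not so listed (Tarsl2) were called lower. With an intensity trend or array weights these counts were 11 of 11 and 2 of 8. The 2 settings called 841 and 2024 of all 19938 genes lower. The median log2 fold change was -0.22 for the listed genes and -0.06 for the others. Per array, the median deviation of the 11 listed genes from their ERT2 means was -0.24, -0.22 and -0.21 in the Cre-ERT2 arrays and between -0.01 and 0.01 in the ERT2 arrays. The medians of the other 8 were -0.08, -0.09 and -0.06 in the Cre-ERT2 arrays. These divisions are descriptions: the difference between the classes was not tested, and their members were written down with earlier results of these data known. Without Cre-ERT2 replicate 1 or 2 the listed genes called lower were 5 of 11, and without ERT2 replicate 2 they were 6. With any 1 array left out they were at most 8.

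ATF4 binds a composite element whose core reads TGATGNAA. RefSeq promoters of build GRCm38.p6 were searched from 250 bases before to 50 after the annotated start. Of the 38 genes 29 had an entry, and 4 of these held the core on either strand. The share was 3.97% over all 32851 promoters of that length. A gene counted once, by a match in any of its entries, while that share is per entry and some genes have several. All 4 were among the 7 cytosolic genes called lower that had an entry (Gars, Iars, Tars and Yars). None of the 5 cytosolic genes with an entry that were not called, the 14 mitochondrial or the 3 scaffold genes held it (0 of each). The 4 promoters are printed because they held the core. Any match had to lie within 250 bases before or 50 after the start, so the search does not show that the core lies close to it. The Gars promoter is at chr6:55037751-55038050 on the plus strand and the Iars promoter at chr13:49681880-49682179 on the plus strand. The Tars promoter is at chr15:11399609-11399908 on the minus strand and the Yars promoter at chr4:129189653-129189952 on the plus strand. Each is given 5′ to 3′ along its gene, and capitals mark the core, which stands in the reverse direction (TTNCATCA) in all but Yars.
Gars: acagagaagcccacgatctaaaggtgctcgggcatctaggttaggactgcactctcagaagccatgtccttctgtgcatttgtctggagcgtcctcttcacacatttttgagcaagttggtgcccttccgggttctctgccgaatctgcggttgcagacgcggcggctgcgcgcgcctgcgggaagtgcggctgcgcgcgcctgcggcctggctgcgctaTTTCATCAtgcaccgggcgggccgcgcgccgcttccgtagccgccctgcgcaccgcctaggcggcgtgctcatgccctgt
Iars: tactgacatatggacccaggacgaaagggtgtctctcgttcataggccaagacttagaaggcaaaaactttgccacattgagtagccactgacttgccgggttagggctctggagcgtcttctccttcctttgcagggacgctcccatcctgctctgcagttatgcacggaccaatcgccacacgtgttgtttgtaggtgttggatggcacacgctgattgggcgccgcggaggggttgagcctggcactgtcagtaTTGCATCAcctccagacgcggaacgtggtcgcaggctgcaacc
Tars: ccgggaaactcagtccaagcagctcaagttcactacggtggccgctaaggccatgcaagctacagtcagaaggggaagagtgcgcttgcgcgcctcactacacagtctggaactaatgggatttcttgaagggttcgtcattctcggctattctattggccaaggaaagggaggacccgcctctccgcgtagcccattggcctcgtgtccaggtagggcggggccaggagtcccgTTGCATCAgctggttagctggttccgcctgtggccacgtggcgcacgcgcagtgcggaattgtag
Yars: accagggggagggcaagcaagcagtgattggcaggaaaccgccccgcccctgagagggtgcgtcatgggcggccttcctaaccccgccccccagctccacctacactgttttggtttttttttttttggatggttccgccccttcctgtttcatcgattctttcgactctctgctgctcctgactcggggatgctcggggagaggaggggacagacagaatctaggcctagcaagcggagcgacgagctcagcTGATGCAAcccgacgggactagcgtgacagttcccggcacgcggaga

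The core begins 30 bases before the annotated start in Gars and 15 bases before it in Tars, and 7 bases after it in Iars and 3 bases after it in Yars. Read along the motif, the match was TGATGAAA in Gars and TGATGCAA in the other 3. Of 10 genes called lower with an entry, the other 6 hold no match in this window: Mars1, Sars, Tarsl2, Iars2, Vars2 and Wars2. Cars, Lars, Nars and Wars were called lower and were not searched. Of the ATF4 targets that are no synthetases, 10 of 26 with an entry held the core, 7 of them among the 13 that were called lower. A match is a run of letters and does not show binding in these cells.

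Of 16 mitochondrial synthetase genes, 3 fell (Vars2, Wars2 and Iars2), 0 rose and 13 were not called, against 2.98% of all genes called lower. The median log2 fold change was -0.08, or 94.5% of the ERT2 level. All Cre-ERT2 arrays lay below all ERT2 arrays for 9 of the 16, and for 20.3% of all genes. Of the 16, 5 belong to the brightest 25% of genes, against 18 of 19 cytosolic genes, and the difference between the compartments was not tested. Wars2, for mitochondrial tryptophan, had 9.79, 9.82 and 9.83 in Cre-ERT2 arrays and 10.01, 9.98 and 10.00 in ERT2 arrays (log2 fold change -0.18, SE 0.0361, adjusted p = 0.0205). Iars2, for isoleucine, had 11.60, 11.61 and 11.54 in Cre-ERT2 arrays and 11.73, 11.74 and 11.75 in ERT2 arrays (-0.16, SE 0.0381, adjusted p = 0.0409). In both genes the ERT2 arrays were close together and well apart from the Cre-ERT2 arrays. Vars2, for valine, had 10.14, 10.08 and 10.09 in Cre-ERT2 arrays and 10.28, 10.23 and 10.36 in ERT2 arrays (-0.18, SE 0.0455, adjusted p = 0.0478). Wars2 stayed called in the absence of Cre-ERT2 replicate 3 but of no other array (adjusted p up to 0.0945). Iars2 and Vars2 missed the threshold whichever array was dropped (up to 0.125 and 0.171). After median centring of the arrays 0 mitochondrial genes were called, and after quantile normalization or cyclic loess 1. With an intensity trend 4 of the 16 were called lower (841 of all 19938 genes), and with array weights 5 (2024 of all genes). Without the dimmest 30% of genes 4 were called lower (778 of the 13956 genes left).

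Tars2, for mitochondrial threonine, had 11.49, 11.52 and 11.59 in Cre-ERT2 arrays and 11.63, 11.71 and 11.78 in ERT2 arrays, a log2 fold change of -0.18 that was not called (SE 0.0501, adjusted p = 0.0775). Tars2 was called lower with an intensity trend, with array weights or without the dimmest 30% of genes (limma adjusted p down to 0.0323). Its groups did not overlap, and its arrays were more scattered than those of the 3 called genes. Yars2 had 12.12, 12.10 and 12.09 in Cre-ERT2 arrays and 12.22, 12.15 and 12.18 in ERT2 arrays (-0.08, adjusted p = 0.240). Nars2 was at -0.13 and was called lower only with array weights (limma adjusted p = 0.0400). Pars2 was at -0.10, and Rars2, Sars2 and Aars2 at -0.08 each. Ears2 was at -0.06, Lars2 at -0.05 and Mars2 at -0.02. Hars2 was at -0.0019 and Fars2 at 0.01. Cars2, for mitochondrial cysteine, was highest at 0.03, with a 95% interval of -0.06 to 0.11.

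Set against the enzyme for the same amino acid in the other compartment, the cytosolic gene had the lower log2 fold change in 14 of 17 pairs, which are made of 16 cytosolic and 15 mitochondrial genes. The difference was widest for cysteine, where Cars was at -0.35 and Cars2 at 0.03. For methionine Mars1 was at -0.24 and Mars2 at -0.02, and for leucine Lars was at -0.24 and Lars2 at -0.05. The log2 level of the cytosolic minus the mitochondrial gene was lower in all Cre-ERT2 arrays than in all ERT2 arrays for 9 pairs and overlapped for 7. Of the 9, the pair of Iars and Iars2 differed least between the groups, by -0.02. How often other pairs of genes separate in this way was not counted. Valine ran the other way, with Vars at -0.05 and Vars2 at -0.18, and it was the 1 pair whose difference was higher in all Cre-ERT2 arrays. Tryptophan and arginine pairs had slightly lower values for Wars2 and Rars2. The pairs share arrays and 3 genes occur in more than 1 pair, so the counts carry no test.

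**Figure D3:**
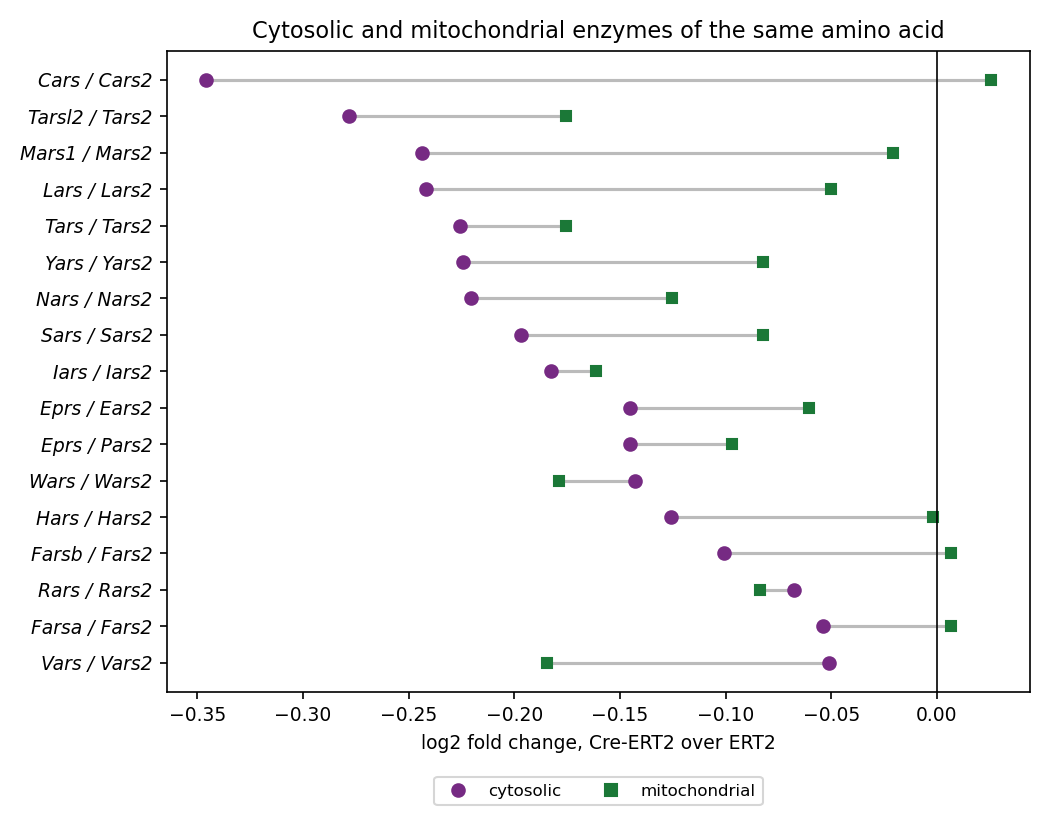
Each row joins the log2 fold change (horizontal axis, Cre-ERT2 over ERT2) of a cytosolic gene (circle) to that of the mitochondrial gene for the same amino acid (square). The circle lies left of the square in 14 of 17 rows, with the widest gap for Cars and Cars2.

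None of the 3 scaffold genes was called by limma (0 lower and 0 higher). Eef1e1 and Aimp2 (2 of 3) were lower at an unadjusted p under 0.05, as were 2994 of all 19938 genes. Eef1e1 was called lower with an intensity trend or with array weights (1 of 3 in each). Those settings called 841 and 2024 of all 19938 genes lower. Eef1e1, also known as AIMP3, had 12.47, 12.38 and 12.28 in Cre-ERT2 arrays and 12.60, 12.52 and 12.53 in ERT2 arrays. Its groups did not overlap, the Cre-ERT2 arrays were widely spread, and the log2 fold change was -0.18 (SE 0.0531, adjusted p = 0.0905). Aimp2 was at -0.15 (95% interval -0.30 to -0.01) with ERT2 arrays between 11.57 and 11.82, and Aimp1 at -0.08 (95% interval -0.20 to 0.03).

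Atf4 and genes listed as its targets were measured on the same arrays. Atf4 had 11.27, 11.26 and 11.20 in Cre-ERT2 arrays and 11.54, 11.51 and 11.53 in ERT2 arrays, a fall of 0.28 to 82.2% of the ERT2 level (SE 0.0378, adjusted p = 0.00283). Of 29 measured ATF4 targets that are no synthetases, 15 fell, 0 rose and 14 were not called, against 2.98% of all genes called lower, with a median log2 fold change of -0.18. The largest falls were in Cth, which makes cysteine (-0.70), the pseudokinase Trib3 (-0.46), Chac1, which breaks down glutathione (-0.44), and the alanine transaminase Gpt2 (-0.40). Without Cre-ERT2 replicate 1 or 2, 9 of the 29 were called lower. Of 17 amino acid transporters 6 fell, 0 rose and 11 were not called, with a median of -0.10, against 2.98% of all genes called lower and 4.05% called higher. The glycine transporter Slc6a9 fell by 0.44, the cationic amino acid transporters Slc7a3 and Slc7a1 by 0.39 and 0.28, and the neutral amino acid transporter Slc1a4 by 0.33. At an unadjusted p under 0.05, where 2994 of all 19938 genes were lower and 1596 higher, 9 transporters were lower and 2 higher. The 2, named after their values were seen, were the lysosomal transporter genes Slc36a1 (log2 fold change 0.20, adjusted p = 0.0903) and Slc38a9 (0.14, adjusted p = 0.118). All Cre-ERT2 arrays lay above all ERT2 arrays for these 2 of the 17 transporters and for 9.56% of all genes. They lay below all ERT2 arrays for 9 of the 17 and for 20.3% of all genes. With array weights 2 transporters were called higher, as were 1315 of all 19938 genes.

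A list of 13 genes was made of Atf4 itself and of eIF2 kinases, eIF2B subunits and related regulators. Of these 2 fell (Atf4 and Eif2b3) and 1 rose, against 2.98% of all genes called lower and 4.05% called higher. The median of the list was -0.03. The eIF2B subunit gene Eif2b3 fell by 0.20 (adjusted p = 0.0133), which missed the threshold when replicate 1 of either group or Cre-ERT2 replicate 2 was dropped (up to 0.0706). Eif2ak2, the kinase PKR that is induced by interferon, rose by 0.19 (adjusted p = 0.0487), a call that ended with any array left out (up to 0.179). The gene of GCN2, Eif2ak4, named after its values were seen, had 10.34, 10.40 and 10.47 in Cre-ERT2 arrays and 10.46, 10.61 and 10.52 in ERT2 arrays, which overlap (-0.13, adjusted p = 0.189).

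Genes for other steps of translation were taken as 3 lists. Of 32 initiation, elongation and release factors limma called 0 in either direction. At an unadjusted p under 0.05, where 2994 of all 19938 genes were lower and 1596 higher, 5 factors were lower and 0 higher. With an intensity trend 1 was called lower and 1 higher (841 and 982 of all genes), and with array weights 1 lower (2024 of all genes). Their median log2 fold change was -0.04. The eIF3 subunit genes Eif3c (adjusted p = 0.131) and Eif3m (adjusted p = 0.141) were each at -0.11. Of 43 tRNA processing and modification genes 6 fell and 0 rose, against 2.98% of all genes called lower. Their median was -0.08, as for the mitochondrial synthetases, and 40 of the 43 had a value below 0, as did 68.2% of all genes. The tRNA methyltransferase gene Trdmt1 and the tRNA exporter gene Xpot each fell by 0.20, the Elongator subunit gene Elp4 by 0.19 and the tRNA deaminase gene Adat2 by 0.18. These 6 calls were fragile, with between 0 and 3 genes of the list called lower when any 1 array was left out. Of 32 mitochondrial translation genes 1 fell (3.1%), near the 2.98% of all genes called lower. It was the ribosomal protein gene Mrpl12 (-0.27, limma adjusted p = 0.0226). Its call missed the threshold when any of Cre-ERT2 replicates 2 and 3 and ERT2 replicates 1 and 3 was dropped (up to 0.0974).

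**Figure D4:**
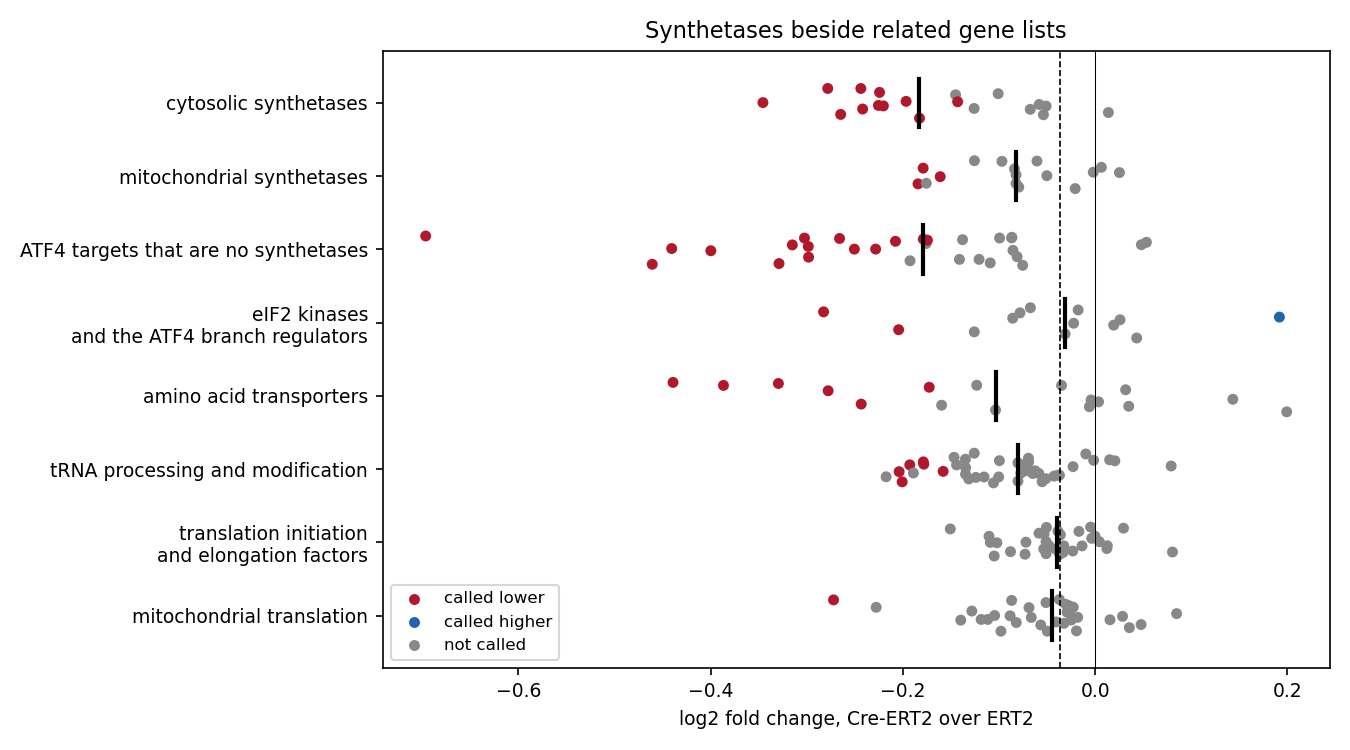
Each point is a gene's log2 fold change (horizontal axis, Cre-ERT2 over ERT2), 1 row per gene list, red where called lower, blue where called higher and grey where not called. Thick bars are list medians and the dashed line is the median of all genes (-0.04). The median of the cytosolic synthetases (-0.18) lies level with that of the ATF4 targets that are no synthetases (-0.18). Of these synthetases, 11 are listed as ATF4 targets (median -0.22) and 8 are not (median -0.06). The median of the initiation and elongation factors (-0.04) lies at the dashed line, and their genes run between -0.15 and 0.08.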

How the data were processed

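RNA of 6 samples was hybridized to Affymetrix arrays, 3 for Cre-ERT2 and 3 for ERT2. The deposited log2 values per probe set were made by the authors with RMA and Partek 6.5, per the submitters' processing notes. The RMA background and annotation settings are not given in the sources used here. RMA compresses changes of dim probe sets, and depth of sequencing does not apply: the number of arrays limits precision, with a median SE of 0.0477 for a log2 fold change.

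Of 35556 probe sets, 21789 had 1 gene symbol, 1621 several and 12146 none listed. Only those with 1 symbol were used, with the probe set of highest mean level where a gene had more (999 genes), which left 19938 genes. Groups were taken from the transduction label. Cre-ERT2 was compared with ERT2 in limma 3.58.1 (R 4.3.3, lmFit and eBayes, 2-sided), with Benjamini-Hochberg adjustment over all genes and a threshold of 0.05. The fit was also run on simulated data with independent normal noise. How well it recovered changes of the size reported here is not given. Fold changes are Cre-ERT2 over ERT2. Tables and figures used Python 3.11.15, pandas 2.3.3 and matplotlib 3.10.9.

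Every member is named. Values per array are given for called members and for 6 others, chosen by highest mean level in each compartment and smallest p. Of each related list up to 4 called genes of largest change are named, or the 2 of smallest p where none was called, and of each marker list the 2 of highest mean. Members and lists were chosen with earlier results of these data known. Promoter sequences are from RefSeq (GRCm38.p6), matched by symbol. Alternatives were a replicate block, an intensity trend, array weights, 3 rescalings, leaving out the dimmest 30% of genes, averaging over the probe sets of each gene, and each array left out.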

Additional observations from a re-analysis of the deposited data

How the results depend on the processing

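Of 14 synthetase genes called lower, 5 kept the call with each of the 6 arrays left out in turn and 7 kept it under all 8 other alternatives. Members whose sign changed under an alternative were Qars, Mars2, Hars2 and Fars2 (4), none of them called. With 3 arrays a group the SE of a log2 fold change (median 0.0477 over all genes) limits what can be called.

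The labels do not say whether the replicate numbers pair the arrays. Same-numbered arrays had correlations of their deviations of 0.05, -0.09 and -0.26. Deviations centred within groups of 3 arrays cannot decide the question. With the replicate block the number called lower was 7 for cytosolic genes, 0 for mitochondrial genes, 6 for cytosolic genes listed as ATF4 targets, 1 for the eIF2 list (0 called higher), 0 for tRNA processing, 0 for mitochondrial translation and 259 for all genes.

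With array weights the number called lower was 5 for mitochondrial genes, 1 for scaffold genes, 2 for cytosolic genes not listed as ATF4 targets, 1 for translation factors, 12 for tRNA processing, 3 for mitochondrial translation and 2024 for all genes (1315 higher), and 2 transporters were called higher. Medians of the log2 fold change were then -0.16 for cytosolic genes, -0.0568 for the eIF2 list and -0.0450 for translation factors. An intensity trend gave 1 scaffold gene lower, 2 cytosolic genes not listed as ATF4 targets lower, 1 translation factor lower and 1 higher, and 3 mitochondrial translation genes lower. Without the dimmest 30% of genes, 2 mitochondrial translation genes were called lower.

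Quantile normalization called 1 mitochondrial gene lower and 0 of the eIF2 list higher, with a median of -0.0358 for translation factors. Median centring called 0 mitochondrial genes lower, 0 of the eIF2 list higher, 0 tRNA processing genes lower and 394 of all genes lower. Cyclic loess called 1 mitochondrial gene lower, with medians of -0.0496 for cytosolic genes not listed as ATF4 targets and -0.0265 for translation factors. Averaging over the probe sets of each gene, the median was -0.20 for cytosolic genes and -0.0434 for translation factors.

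With each array left out, the number called lower ranged from 6 to 9 for cytosolic genes, 0 to 1 for mitochondrial genes, 5 to 8 for genes listed as ATF4 targets, 9 to 15 for the other ATF4 targets, 1 to 2 for the eIF2 list, 0 to 3 for tRNA processing, 0 to 1 for mitochondrial translation and 214 to 628 for all genes. The number called higher ranged from 0 to 1 for transporters and 513 to 713 for all genes, and was 0 for the eIF2 list. Medians ranged from -0.20 to -0.17 for cytosolic genes, -0.0940 to -0.0519 for mitochondrial genes, -0.0813 to -0.0642 for cytosolic genes not listed as ATF4 targets, -0.21 to -0.17 for the other ATF4 targets, -0.0605 to -0.0240 for the eIF2 list, -0.0429 to -0.0366 for translation factors, -0.12 to -0.0703 for tRNA processing and -0.0693 to -0.0347 for mitochondrial translation. The cause of these shifts was not tested.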
